A study of Homo sapiens with 8 samples.

Results

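The genes described here carry the human symbols of the subunits of respiratory complex I, and they were followed in libraries labelled as HT29 cells, a human colon cancer cell line, with and without knockdown of ALDH1A1. Members were the genes whose symbol starts with NDUFA, NDUFB, NDUFC, NDUFS or NDUFV, without those that start with NDUFAF, and 40 of the 18664 genes in the table met this rule. Of these, 37 encode known complex I subunits, namely 7 core subunits, 9 accessory subunits of the matrix arm, 20 of the membrane arm and the acyl carrier NDUFAB1, which sits in both arms. NDUFA4 and NDUFA4L2 carry the name without being complex I subunits, since NDUFA4 is counted today as a subunit of cytochrome c oxidase, and NDUFC2-KCTD14 is a read-through transcript unit of NDUFC2 and its neighbour.

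RNA-seq was done on 4 libraries of the shALDH1A1 group, HT29 cells with a short hairpin RNA against ALDH1A1, and on 4 CTRL libraries. All 8 were labelled as HT29 cells grown with 10% FBS, and the CTRL libraries were labelled as a control hairpin in their titles, as WT in their genotype and as parental cells in the series description. Which ALDH1A1 hairpin was sequenced, and whether replicates came from separate cultures, was not stated, so that the p-values below measure only the spread between these libraries.

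Complex I is the NADH dehydrogenase of the inner mitochondrial membrane. Its matrix arm takes electrons from NADH through a flavin and a chain of iron-sulfur clusters to ubiquinone, and its membrane arm pumps protons. The core subunits of the matrix arm are made from nuclear genes and those of the membrane arm from the mitochondrial genome, and the accessory subunits, all nuclear, stabilise the assembly. Of the mitochondrially encoded ND genes, 0 were in the table, so only the nuclear part is described.

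The libraries held 536550 to 1908799 counts in the shALDH1A1 group and 291250 to 4137094 counts in the CTRL group. ALDH1A1 had 3, 1, 1 and 0 counts in shALDH1A1 replicates 1 to 4, against 1858, 83, 1870 and 1000 counts in CTRL replicates 1 to 4. CTRL replicate 2 was the shallowest library. The correlation of log2 CPM between pairs of CTRL libraries ran between 0.11 and 0.87, against 0.75 to 0.85 between shALDH1A1 libraries. The 12 colon epithelium markers took 0.00256 to 0.0171% of the shALDH1A1 counts, with 6 to 10 of them detected, against 0.0130 to 0.125% of the CTRL counts, with 6 to 11 detected. Among the defining intestinal factors, CDX1 was at 0 in every shALDH1A1 library and CDX2 at 0 in every CTRL library. CDX1 had only 1, 0, 1 and 0 counts in CTRL replicates 1 to 4, and the intestinal marker CDH17 had at most 3 counts in any library. The 5 stomach chief cell markers summed to 0 to 0.00506% of the shALDH1A1 counts, against 3.13 to 35.8% of the CTRL counts, where all 5 were detected in each library. Of the 5 parietal cell markers, ATP4A, ATP4B and KCNE2 were at 0 in every shALDH1A1 library, and the list summed to 0 to 0.000745% there, against 0.177 to 1.19% in CTRL libraries. The 8 smooth muscle markers summed to 0.00121 to 0.0483% in shALDH1A1 libraries, against 0.0347 to 3.57% in CTRL libraries. The 30 housekeeping genes took 0.0271 to 0.178% of the shALDH1A1 counts, against 1.16 to 4.98% of the CTRL counts. CDX2 had 0, 0, 0 and 3 counts in shALDH1A1 replicates 1 to 4. The 8 immune cell markers in the table took 0.0840 to 0.116% of the shALDH1A1 counts, with 2 to 5 detected. In CTRL libraries they took 0.0892 to 0.210%, with 5 to 8 detected, and in every library this was above the colon share. The stomach markers and the absent CDX2 go against the HT29 label of the CTRL libraries. None of these lists establishes that label for the shALDH1A1 libraries. Every difference below is thus one between libraries labelled shALDH1A1 and CTRL, in which knockdown of ALDH1A1 cannot be told apart from a difference in cell identity or RNA. The part of these cell type markers and of the housekeeping share in the differences was not tested.

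The reference transcript of each gene was searched for stretches of 24 bases that also occur, in either orientation, in the transcripts of at least 100 other genes, called recurrent sequence here. Such bases were present in 10 of the 40 members (25.0%), beside 4491 of 17940 genes (25.0%) in the whole annotation, and in all 10 they lay in the 3′UTR. NDUFS1 had 1065 recurrent bases, NDUFV3 1001, NDUFB5 339, NDUFA9 230, NDUFC2 223, NDUFB6 117 and NDUFA5 101, and NDUFA3 and NDUFA4 had 86 and 79.

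To ask which members differed between shALDH1A1 and CTRL cells, counts were compared gene by gene with edgeR's quasi-likelihood test after TMM scaling, which sets libraries to a common level on the trimmed mean of their gene ratios. A gene was called at an adjusted p under 0.05. Of 39 members with enough counts, 25 were lower and 0 higher in the shALDH1A1 group, and the median log2 fold change of the members was -3.32. That is 64.1% of the members, whereas 33.0% of all 7971 tested genes were lower and 2.60% were higher, and the median over all tested genes was -1.44. At an unadjusted p under 0.05 the members numbered 29 lower and 1 higher, where 41.6% of all tested genes were lower and 7.46% higher. The 40th member, NDUFC2-KCTD14, had too few counts for the test. Bulk libraries cannot tell fewer cells of a type from less RNA per cell. Members also had shorter reference transcripts than all genes (medians of 693.5 and 3086 bases), and the part of length was not tested.

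The size of these differences depended on the scale, while the place of the members below the bulk of genes did not in the scales tried. Scaled to the summed counts of 30 housekeeping genes, 3 members were lower (7.69%, beside 5.31% of all tested genes) and 4 were higher (10.3%, beside 41.6%). There, 24 members lay below 0 and 15 above it, and of the 25 lower ones NDUFA4, NDUFB1 and NDUFB3 were above 0. On that scale the median was -0.76 for the members and 1.89 for all tested genes. With library totals alone, 33 members were lower (84.6%, beside 52.0%) and 0 higher (beside 0.74%), and the medians were -5.12 for the members and -2.70 for all tested genes. The members' median minus that of all genes was thus -1.87 on the TMM scale, -2.65 on the housekeeping scale and -2.42 on library totals. With DESeq2, 33 members were lower (beside 55.8% of all tested genes) and 2 higher, NDUFA9 and NDUFV3 (beside 16.6%). The housekeeping genes themselves had a median of -2.54 on the TMM scale, with 4 of 27 lower (14.8%). On library totals 24 of these 27 were lower (88.9%), with DESeq2 25 were, and in TPM the groups did not overlap for 23 that were lower in shALDH1A1 (85.2%), shares close to those of the members.

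**Figure D1:**
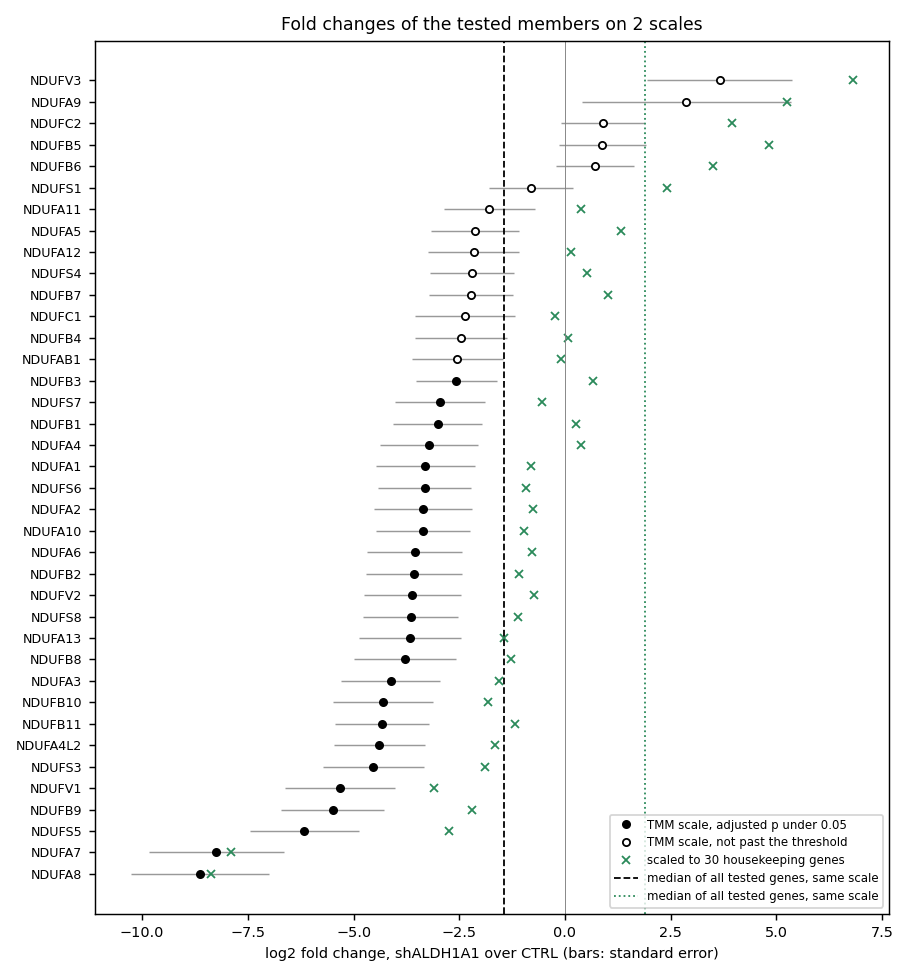
Log2 fold changes, shALDH1A1 over CTRL, of 38 of the 39 tested members, ordered by value. Circles give the TMM scale with the standard error (filled where the adjusted p is under 0.05), crosses give the scale of 30 housekeeping genes, and the vertical lines mark the median of all tested genes on each scale (-1.44 dashed, 1.89 dotted). NDUFA8 and NDUFA7 are lowest on both scales, and 5 members lie above 0 on the TMM scale.

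The counts behind the low side were few in the shALDH1A1 group: 29 of the 40 members had at most 20 counts summed over its 4 libraries, and those of them that passed the count filter did so mainly through the CTRL group. At least 1 count was found for 15, 37, 31 and 19 members in shALDH1A1 replicates 1 to 4, against 40, 39, 40 and 40 members in CTRL replicates 1 to 4. In TPM, which is per length, the groups did not overlap for 32 tested members that were lower in shALDH1A1 (82.1%, beside 34.9% of all tested genes) and for 1 that was higher, NDUFV3 (2.56%, beside 8.22%). The groups overlapped in TPM for 7 of the 40 members, namely NDUFA5, NDUFA9, NDUFB5, NDUFB6, NDUFC2, NDUFS1 and NDUFC2-KCTD14.

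**Figure D2:**
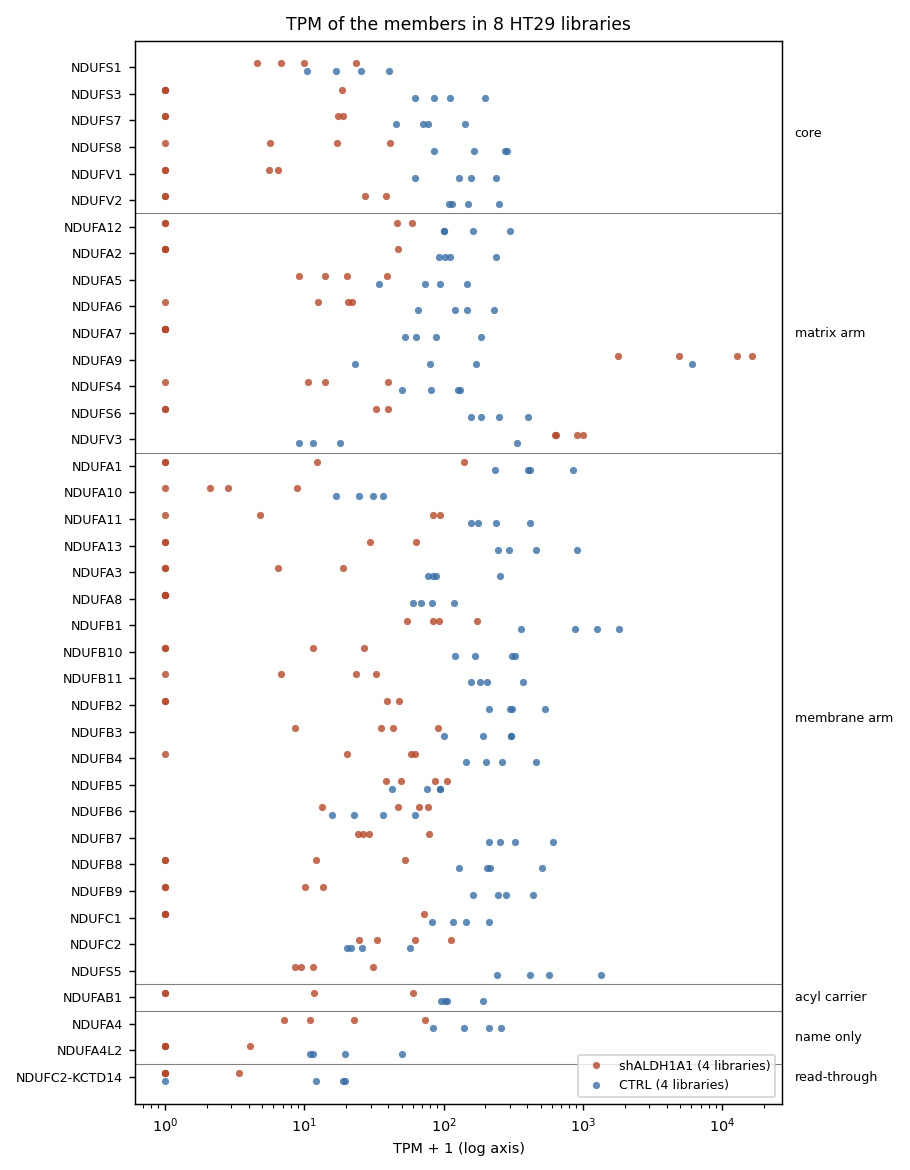
TPM + 1 of each of 39 of the 40 members on a log axis, 1 point per library, with the 4 shALDH1A1 libraries above the 4 CTRL libraries in each row and members grouped by their place in the complex. NDUFA9 and NDUFV3 are at the high end in shALDH1A1 cells (1776 to 16447 TPM and 631 to 1009 TPM), while most other members are at or near 0 there.

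Among the 7 nuclear core subunits, 6 were lower in the shALDH1A1 group (85.7%, beside 33.0% of all tested genes) and NDUFS1 did not pass the test. NDUFV1, which binds NADH and the flavin, had 0, 2, 3 and 0 counts in shALDH1A1 replicates 1 to 4, against 419, 33, 521 and 138 in CTRL replicates 1 to 4. The groups were apart in TPM too, with means of 2.53 ± 2.94 TPM in shALDH1A1 cells and 146 ± 72.4 TPM in CTRL cells (SD, n = 4 each). At a log2 fold change of -5.32, with a standard error of 1.29, its adjusted p was 0.00292 in edgeR, and it was the only core subunit also lower on the housekeeping scale, at -3.11 (adjusted p = 0.0344).

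NDUFV2, an iron-sulfur partner of NDUFV1, had 0, 8, 0 and 2 counts in shALDH1A1 cells, against 315, 10, 206 and 119 in CTRL cells. NDUFS3, a core subunit near the ubiquinone site, had 0, 4, 0 and 0 counts in shALDH1A1 cells, against 264, 6, 220 and 68 in CTRL cells. In raw counts CTRL replicate 2 came within a few counts of shALDH1A1 replicate 2 for both genes, but it was also the shallowest library, and in TPM the groups were apart for each.

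NDUFS7, which holds the last iron-sulfur cluster before ubiquinone, had 0, 3, 4 and 0 counts in shALDH1A1 cells, against 154, 4, 153 and 40 in CTRL cells. NDUFS8, which holds a pair of clusters, had 0, 7, 1 and 1 counts in shALDH1A1 cells, against 290, 15, 248 and 71 in CTRL cells. The log2 fold changes of NDUFV2, NDUFS3, NDUFS7 and NDUFS8 ran between -4.53 for NDUFS3 and -2.94 for NDUFS7, with adjusted p between 0.00525 and 0.0324 from edgeR. For each of the lower core subunits named here the exact two-sided permutation test on log2(CPM + 1) gave p = 0.0286, the smallest that 4 against 4 libraries allow. Without shALDH1A1 replicate 4 the calls of NDUFV2, NDUFS7 and NDUFS8 were lost, those of NDUFV2 and NDUFS7 also without shALDH1A1 replicate 1, that of NDUFV2 without shALDH1A1 replicate 3 and that of NDUFS7 without CTRL replicate 1 or 3. Those of NDUFV1 and NDUFS3 were kept in all 8 fits that left out 1 library.

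NDUFS1, the largest subunit and the carrier of several iron-sulfur clusters, was the core gene that edgeR did not call. It had 18, 34, 27 and 31 counts in shALDH1A1 cells, against 243, 46, 308 and 90 in CTRL cells. In TPM the groups overlapped, with 3.61, 8.99, 5.87 and 22.7 TPM in shALDH1A1 cells, against 24.4, 39.8, 16.0 and 9.43 TPM in CTRL cells. Its log2 fold change of -0.81 ± 1.00 (standard error) had an adjusted p of 0.493 in edgeR and lay 0.64 above the median of all tested genes. DESeq2 called it lower, at -1.34 (adjusted p = 0.0287), with the other core genes.

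In the matrix arm, 4 of 9 accessory subunits were lower (44.4%, beside 33.0% of all tested genes). With only 9 genes, this share was near that of all genes. Both genes that held most of the members' counts in shALDH1A1 cells belong to this arm. NDUFA7, a small subunit of the arm, had 0 counts in each of the 4 shALDH1A1 libraries, against 129, 2, 64 and 51 in CTRL cells. Taking 3 counts over the group as the floor, it was at least 18.7-fold lower in the shALDH1A1 group on the TMM scale, at least 53.8-fold on library totals and at least 2.22-fold on the housekeeping scale. These bounds rest on single libraries: they were 11.8 on the TMM scale and 35.2 on library totals without shALDH1A1 replicate 1, 35.3 on library totals without CTRL replicate 1, and 1.35 and 1.24 on the housekeeping scale without shALDH1A1 replicate 2 or 3. NDUFA6, which holds the acyl carrier in place, had 0, 6, 4 and 2 counts in shALDH1A1 cells, against 387, 13, 163 and 169 in CTRL cells (log2 fold change -3.55, adjusted p = 0.0165 in edgeR), a call lost without shALDH1A1 replicate 1 or 4.

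NDUFA9, a dehydrogenase-like subunit at the joint of the 2 arms, had 6387, 43942, 16107 and 12440 counts in shALDH1A1 cells, against 2781, 5090, 554 and 1073 in CTRL cells. These are 1776, 16447, 4915 and 12696 TPM in shALDH1A1 cells, against 169, 6078, 22.3 and 78.6 TPM in CTRL cells. CTRL replicate 2 lay inside the shALDH1A1 range in TPM, so the groups overlapped. By count it ranked 56, 2, 17 and 3 among all genes in shALDH1A1 replicates 1 to 4, against 95, 3, 576 and 96 in CTRL replicates 1 to 4. On the log2 scale it differed by 2.87 ± 2.47 (standard error), which was not past the threshold (adjusted p = 0.325 from edgeR, exact two-sided permutation p = 0.0857). It passed without CTRL replicate 2. NDUFA9 is listed with a single transcript, yet its expected counts were not whole in any library (6387.42 in shALDH1A1 replicate 1). Other coding genes on the same strand overlap it in the annotation. Its counts and ranks may thus hold reads that the model shared with other genes, which was not tested.

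NDUFV3, a small subunit next to the NADH site, had 2136, 995, 1747 and 363 counts in shALDH1A1 cells, against 164, 160, 154 and 62 in CTRL cells. In TPM it had 1009, 642, 913 and 631 in shALDH1A1 cells, against 16.9, 336, 10.6 and 8.25 in CTRL cells, with no overlap, and CTRL replicate 2 was again the nearest to the shALDH1A1 libraries. On the TMM scale the difference of 3.66 ± 1.71 log2 units (standard error) did not pass, with an adjusted p of 0.0888 in edgeR, while on the housekeeping scale it was 6.82 with an adjusted p of 0.0209. Of its 2 main transcripts, the one with an extra exon took 32.2 to 39.0% of their joint counts in shALDH1A1 cells, against 23.9 to 52.4% in CTRL cells.

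Together NDUFA9 and NDUFV3 held most of the members' counts in the shALDH1A1 libraries and in CTRL replicate 2. In CTRL replicates 1, 3 and 4 the 38 other members held 79.4, 91.0 and 78.8%. NDUFA9 alone took 73.0, 97.0, 88.7 and 96.0% of all member counts in shALDH1A1 replicates 1 to 4, against 19.5, 88.9, 7.08 and 20.01% in CTRL replicates 1 to 4. The median share of library counts taken by the 40 members was 1.75% in shALDH1A1 cells and 0.469% in CTRL cells. Without NDUFA9 it was 0.109% in shALDH1A1 cells and 0.238% in CTRL cells, and without NDUFA9 and NDUFV3 0.0217% in shALDH1A1 cells and 0.213% in CTRL cells, so the sum changed direction with a single gene. The 38 other members summed to 0.443, 0.142, 0.1097 and 0.296 counts per housekeeping count in shALDH1A1 cells, against 0.0980, 0.141, 0.103 and 0.0964 in CTRL cells, and by this measure shALDH1A1 replicates 2 and 3 lay inside or near the CTRL range. Of these summed counts, NDUFA5, NDUFB5, NDUFB6, NDUFC2 and NDUFS1, the 5 with at least 100 recurrent bases, held 89.1, 58.0, 54.1 and 76.5% in shALDH1A1 cells, against 11.4, 24.8, 12.9 and 15.5% in CTRL cells. The 33 left summed to 25, 148, 140 and 36 counts in shALDH1A1 cells, against 10046, 357, 6201 and 3572 in CTRL cells. Per housekeeping count the 33 stood at 0.0484, 0.0599, 0.0503 and 0.0696 in shALDH1A1 cells, against 0.0868, 0.106, 0.0893 and 0.0814 in CTRL cells, without overlap, in a split chosen after the values were seen.

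**Figure D3:**
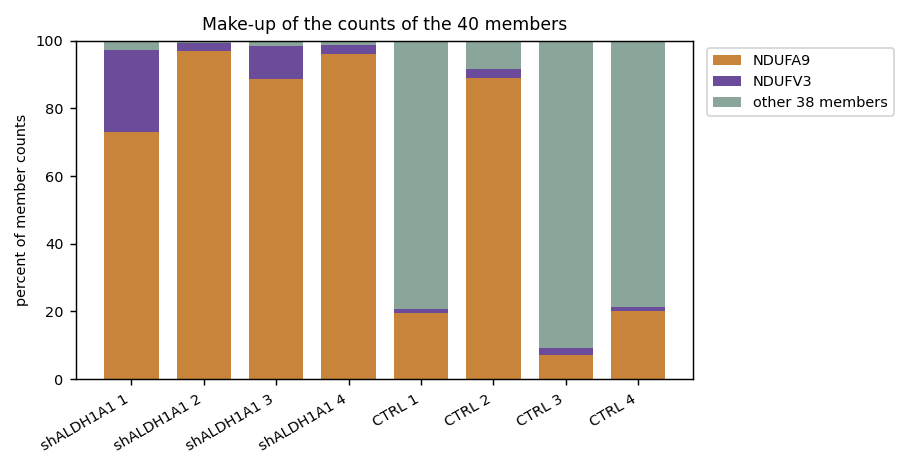
Percent of all member counts taken by NDUFA9, NDUFV3 and the other 38 members in each library, 4 shALDH1A1 libraries on the left and 4 CTRL libraries on the right. NDUFA9 takes 73.0 to 97.0% in shALDH1A1 libraries, 88.9% in CTRL replicate 2 and at most 20.01% in CTRL replicates 1, 3 and 4.

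In the membrane arm, 13 of 20 accessory subunits were lower (65.0%, beside 33.0% of all tested genes). NDUFA8, a cysteine-rich subunit on the side of the intermembrane space, had 0 counts in each shALDH1A1 library, against 136, 5, 102 and 65 in CTRL cells. It was at least 23.4-fold lower in the shALDH1A1 group on the TMM scale, at least 67.3-fold on library totals and at least 2.78-fold on the housekeeping scale, with the same floor. Without shALDH1A1 replicate 1 the bounds were 14.8 on the TMM scale and 44.02 on library totals, and without shALDH1A1 replicate 2 or 3 they were 1.69 and 1.55 on the housekeeping scale. Together with NDUFA7 and NDUFV1 it was 1 of the 3 members that were lower on the housekeeping scale too (adjusted p = 0.0149 for NDUFA8 and 0.0183 for NDUFA7 from edgeR).

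NDUFS5, another cysteine-rich subunit of that side, had 1 count in each shALDH1A1 library, against 910, 20, 241 and 222 in CTRL cells. Its mean was 14.2 ± 10.7 TPM in shALDH1A1 cells and 646 ± 488 TPM in CTRL cells (SD, n = 4 each), and the log2 difference of -6.16 ± 1.28 (standard error) had an adjusted p of 0.000884 in edgeR. NDUFB9, of the LYR family that binds the acyl carrier, had 2, 2, 0 and 0 counts in shALDH1A1 cells, against 404, 14, 335 and 125 in CTRL cells (log2 fold change -5.50, adjusted p = 0.00132). In TPM neither gene overlapped between the groups.

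NDUFB10, NDUFB11, NDUFB2 and NDUFA3, which line the membrane arm, had at most 4 counts in any shALDH1A1 library, and log2 fold changes of -4.29, -4.33, -3.56 and -4.12 with adjusted p of 0.00688, 0.00415, 0.0171 and 0.00844 from edgeR. Of these, NDUFB10, NDUFB11 and NDUFA3 kept their call in every fit that left out 1 library, and NDUFB2 lost it without shALDH1A1 replicate 1 or 4. The remaining 9 lower members, NDUFA1, NDUFA2, NDUFA10, NDUFA13, NDUFA4, NDUFB1, NDUFB3, NDUFB8 and NDUFS6, ranged between -3.78 and -2.57 on the log2 scale, with adjusted p between 0.0174 and 0.0375, and none had over 16 counts in a shALDH1A1 library. A further 8 members, NDUFA5, NDUFA11, NDUFA12, NDUFAB1, NDUFB4, NDUFB7, NDUFC1 and NDUFS4, had log2 fold changes of -2.55 to -1.79 that did not pass the test (adjusted p 0.0645 to 0.168), with TPM groups apart for 7 of them.

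NDUFC2, NDUFB5 and NDUFB6 of the membrane arm lay near the CTRL level or above it. NDUFC2, at the foot of the membrane arm, had 21, 72, 26 and 12 counts in shALDH1A1 cells, against 220, 5, 115 and 67 in CTRL cells. NDUFB5 had 148, 49, 76 and 49 counts in shALDH1A1 cells, against 254, 24, 181 and 147 in CTRL cells. NDUFB6 had 6, 29, 20 and 9 counts in shALDH1A1 cells, against 82, 7, 51 and 38 in CTRL cells. Their log2 fold changes on the TMM scale were 0.90, 0.89 and 0.71, with adjusted p of 0.44, 0.468 and 0.511 from edgeR, and on library totals all 3 were below 0, at -0.95, -0.45 and -0.93. On the housekeeping scale all 3 were called higher, at 3.94, 4.82 and 3.50. NDUFC2 shares exons with the read-through NDUFC2-KCTD14, which had 1 count in the shALDH1A1 group, against 192 in the CTRL group, so the split of reads between them is uncertain.

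Below the level of the gene, NDUFB5 and NDUFS1 differed by transcript. The table lists 3 transcripts of NDUFB5, and the shortest by its counts per TPM (transcript B) had 0 counts in all 4 shALDH1A1 libraries, against 110, 3.16, 71.2 and 77.6 expected counts in CTRL cells. Transcript A, which had 5.52 times as many counts per TPM in CTRL replicate 1 and so is longer, had 66.3, 32.5, 28.6 and 0 in shALDH1A1 cells, against 125, 7.94, 101 and 55.8 in CTRL cells. In transcript C, also long, the sum was 195 in shALDH1A1 cells and 54.1 in CTRL cells.

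Of the 5 transcripts of NDUFS1, transcript B had 0 counts in all shALDH1A1 libraries, against 123, 0, 95.6 and 34.8 in CTRL cells. Transcript A, with 3.61 times as many counts per TPM, had 9.30, 15.6, 27.0 and 0 in shALDH1A1 cells, against 120, 0, 212 and 55.2 in CTRL cells. Transcript E ran the other way, with 0, 18.04, 0 and 30.99 in shALDH1A1 cells, against 0 in all 4 CTRL libraries, and transcript C had 8.87 in shALDH1A1 replicate 1 and 46.4 in CTRL replicate 2, where it took nearly all of the counts. For both genes the expected counts split reads between transcripts by a model, so that a 0 for one transcript is an estimate, and these transcript values were chosen for display after they were seen and carry no test.

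**Figure D4:**
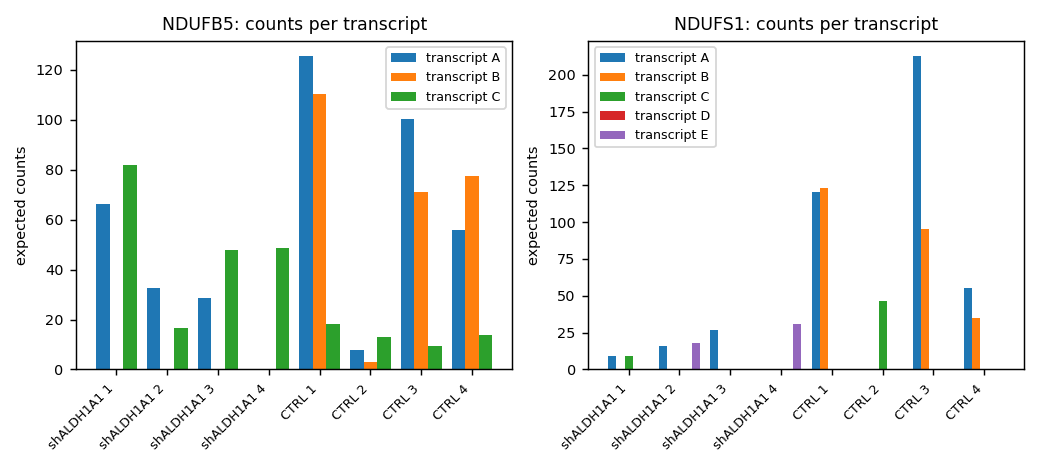
Expected counts of each transcript of NDUFB5 (left) and NDUFS1 (right) in the 4 shALDH1A1 and then the 4 CTRL libraries. Transcript B of either gene has no bar in any shALDH1A1 library and reaches 110 (NDUFB5) and 123 (NDUFS1) in CTRL replicate 1.

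Set against the recurrent sequence counted above, the 7 members with at least 100 such bases had a median log2 fold change of 0.89 with 0 of 7 lower, and the other 32 tested members a median of -3.56 with 25 lower (78.1%). The reference transcripts of these 7 were 1366 to 11660 bases long, whereas the median over all 40 members was 693.5 bases. Length was thus not held equal in this split. Among all tested genes with a reference transcript, the 2321 with at least 100 recurrent bases had a median of 1.51 and 3.23% were lower, while the 5547 with fewer had a median of -2.41 and 45.6% were lower. Of the 7, NDUFS1 with 1065 recurrent bases was at -0.81 and NDUFA5 with 101 at -2.13, and the other 5 were above 0. NDUFA10 has a 3′UTR of 3749 bases without recurrent sequence and a log2 fold change of -3.37. These are single genes, given as a description. The limit of 100 bases was chosen after the values were seen, and no test was made of it. In NDUFA9, 7212 of 8356 bases of the reference transcript are 3′UTR, and its counts per TPM in CTRL replicate 1 were 4.51 times those of NDUFA4, near the 4.11 times by which its transcript is longer. Where in the transcripts the reads lay was not analysed here, and the parts of recurrent sequence and of transcript length in the differences were not tested.

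**Figure D5:**
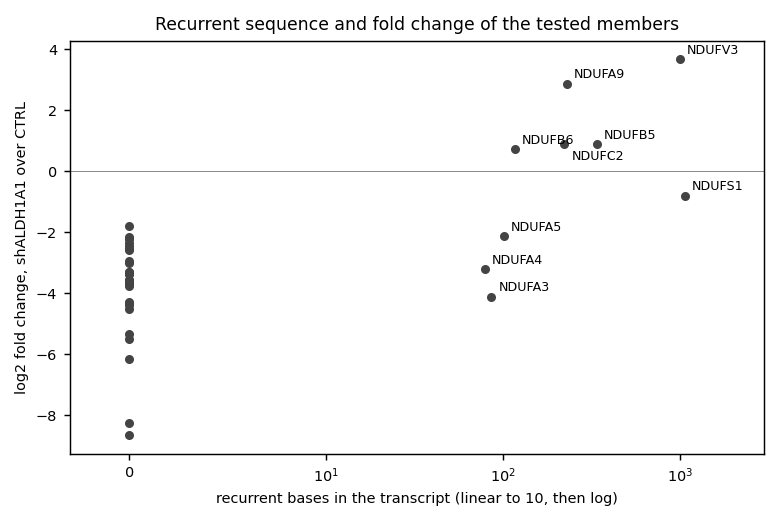
Log2 fold change, shALDH1A1 over CTRL, on the TMM scale against the number of recurrent bases in the reference transcript of each of 38 of the 39 tested members (axis linear to 10, then logarithmic). Of the members with at least 100 such bases, NDUFV3 is highest (3.66) and NDUFA5 lowest (-2.13), and the 29 members with none lie between -8.64 and -1.79.

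Promoters are shown here as a description, since most members lay below 0 on the TMM scale, as did the median of all tested genes. Known activators of respiratory genes bind short motifs, and these were searched on both strands from 250 bases before to 50 after the RefSeq start (GRCh38.p14), which were at hand for 33 members and 27305 genes. The 27305 genes outnumber the 18664 in the table, so they include genes that were not measured here. GCATGCGC, the inner part of the NRF1 motif, was in 6 of 33 members (18.2%) and 3.68% of all genes, and AAGATGGC of YY1 in 7 members (21.2%) and 3.52% of all genes. CCGGAAG of the ETS factor GABP was in 5 members (15.2%) and 12.2% of all genes, and GGGGCGGGG of SP1 in 6 members (18.2%) and 18.5% of all genes. The full NRF1 motif, which contains these shorter letters, was in NDUFA8 and NDUFB4 alone among members, and in 1.52% of all genes. A promoter of a lower member with a pair of GABP motifs and one of a member that did not pass the test with the full NRF1 motif are shown, 250 bases up to the start, with motifs in capitals.
NDUFS3, chr11:47578824-47579073, GRCh38.p14, plus strand: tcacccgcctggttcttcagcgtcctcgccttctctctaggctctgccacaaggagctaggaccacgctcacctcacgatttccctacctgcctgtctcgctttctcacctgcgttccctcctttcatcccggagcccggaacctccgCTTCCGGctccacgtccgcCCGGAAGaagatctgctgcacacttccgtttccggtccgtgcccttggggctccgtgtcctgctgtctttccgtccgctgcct
NDUFB4, chr3:120596086-120596335, GRCh38.p14, plus strand: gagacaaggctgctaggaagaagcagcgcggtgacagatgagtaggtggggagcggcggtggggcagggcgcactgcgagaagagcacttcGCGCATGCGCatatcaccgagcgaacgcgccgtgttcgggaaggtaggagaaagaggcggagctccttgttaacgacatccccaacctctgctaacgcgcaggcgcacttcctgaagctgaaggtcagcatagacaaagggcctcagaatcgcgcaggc
The GABP motifs of NDUFS3 start 102 and 83 bases before the start of the gene, the NRF1 motif of NDUFB4 159 bases before it. Members with and without these letters both occur among the lower genes, and a match is a description of the sequence only.

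The 2 members that are complex I subunits by name only were both lower, beside 33.0% of all tested genes. NDUFA4L2, a relative of NDUFA4 known as a hypoxia-induced gene, had 0, 1, 0 and 0 counts in shALDH1A1 cells, against 36, 5, 29 and 17 in CTRL cells. The ratio of CTRL to shALDH1A1 counts was 19.9 on the TMM scale (95% exact counting interval 3.47 to 793) and 2.36 on the housekeeping scale (0.412 to 94.1), an interval that includes 1.

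Genes that build or feed complex I were counted in the same way. Of 11 tested assembly factors 6 were lower and 0 higher, of 11 iron-sulfur cluster genes 7 and 0, of 12 electron carrier and ubiquinone genes 6 and 0, and of 7 complex II genes 2 and 0. These are 54.5, 63.6, 50 and 28.6% lower, beside 33.0% of all tested genes. The share of complex II, with only 7 genes, was thus near that of all genes. On library totals it was 57.1%, beside 52.0%. On the housekeeping scale the same lists had 1 lower and 4 higher, 1 and 2, 1 and 4, and 1 and 2, beside 5.31% lower and 41.6% higher among all tested genes. The medians of these 4 lists were -2.65, -2.75, -2.81 and -2.32, beside -1.44 for all tested genes, and on the housekeeping scale they turned to 0.06, 0.28, 0.29 and 0.83, beside 1.89. ECSIT, an assembly factor, NFS1, the cysteine desulfurase of iron-sulfur cluster synthesis, and SDHAF1, an assembly factor of complex II, were at 0 in every shALDH1A1 library, against 285, 167 and 112 counts summed over the CTRL group. Among the other named genes, HSPA9, the mitochondrial chaperone of cluster transfer, was lower at -4.45 (adjusted p = 0.005), COQ8A, which supports ubiquinone synthesis, at -5.82 (adjusted p = 0.00124), and TMEM70 and FOXRED1, which act in assembly, at -4.02 and -5.36 (adjusted p = 0.00382 and 0.000894, all from edgeR). NFU1, SDHAF2, COQ4 and COQ9 were also lower, and SDHD, a membrane anchor of complex II, did not pass (adjusted p = 0.0713).

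Of 9 tested regulators of respiratory genes, 2 were lower (22.2%, beside 33.0% of all tested genes) and 0 higher, with a median of -0.55 on the TMM scale. On the housekeeping scale 0 were lower and 5 higher (55.6%, beside 41.6%), with a median of 3.47. ESRRA, a nuclear receptor of mitochondrial genes, had 0, 2, 0 and 0 counts in shALDH1A1 cells, against 113, 2, 205 and 111 in CTRL cells, with a log2 fold change of -5.28 (adjusted p = 0.00257 from edgeR). TFAM, which packs and transcribes mitochondrial DNA, was lower at -2.48 (adjusted p = 0.0287 in edgeR) but stood at 0.75 on the housekeeping scale. GABPB1, the partner chain of the GABP factor whose motif is printed above, had 668, 282, 549 and 111 counts in shALDH1A1 cells, against 59, 49, 75 and 8 in CTRL cells. The TPM of its groups did not overlap, with 129 to 226 TPM in shALDH1A1 cells, against 2.29 to 71.2 TPM in CTRL cells, but the log2 difference of 3.68 was not past the threshold (adjusted p = 0.0554 from edgeR, exact two-sided permutation p = 0.0571). It was called higher with DESeq2 (3.82, adjusted p = 0.00014), on the housekeeping scale (6.84, adjusted p = 0.0148), in the 3 limma fits (adjusted p 0.0106 to 0.018), with median-of-ratios factors, with a minimum count of 30 or no filter, with the replicate block, and without CTRL replicate 2 (5.25, adjusted p = 1.76e-05) or 4. It was not called on library totals (2.33, adjusted p = 0.0805) or without any of the other 6 libraries (adjusted p 0.0553 to 0.134).

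The order of the members by TPM was most alike among CTRL replicates 1, 3 and 4. Over the 40 members, Spearman's rho between CTRL replicates 1, 3 and 4 was 0.86 to 0.95, as a description over genes that share each library. Between CTRL replicate 2 and these 3 it was 0.68 to 0.74. Between shALDH1A1 libraries it was 0.29 to 0.77, and between a shALDH1A1 and a CTRL library -0.18 to 0.47. By median TPM, NDUFB1 was highest in CTRL cells with 1070 TPM (range 360 to 1805), followed by NDUFS5 with 495 (243 to 1350) and NDUFA1 with 410 (233 to 846), whose ranges overlap. This order is per length, and NDUFB1 has a short reference transcript of 317 bases. Counts summed over the CTRL libraries were 570 for NDUFB1, 1393 for NDUFS5 and 591 for NDUFA1. NDUFV3 was lowest there, with a median of 13.8 TPM. In shALDH1A1 cells NDUFA9 and NDUFV3 were highest, with medians of 8805 and 778 TPM, and NDUFB1 followed with 87.4 TPM.

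The count of lower members (25) moved with the scale, as above, and with single libraries. It was 12 of 40 without shALDH1A1 replicate 1 (beside 22.5% of all tested genes) and 11 of 40 without shALDH1A1 replicate 4 (beside 23.9%). In these 2 fits the members lay closer to all genes. Their median minus that of all genes was -1.29 and -0.99 there, against -1.87 with all libraries. Without CTRL replicate 2, 34 of 40 members were lower (beside 60.4%), and NDUFA9 and NDUFV3 were called higher (beside 17.3% of all tested genes). The 10 members lower in all 8 fits that left out 1 library were NDUFA3, NDUFA4L2, NDUFA7, NDUFA8, NDUFB9, NDUFB10, NDUFB11, NDUFS3, NDUFS5 and NDUFV1. The same count over all tested genes is not given here, so these 10 cannot be set against it. At the threshold of the study's methods, an adjusted p under 0.001 and an absolute log2 fold change over 1, 3 members were lower, NDUFA7, NDUFA8 and NDUFS5, where 4.89% of all tested genes were.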

How the data were processed

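Total RNA of 4 shALDH1A1 and 4 CTRL HT29 libraries was sequenced. The deposited table holds, for 84798 transcripts, expected counts as estimated by the authors with RSEM and the authors' TPM values. Per the methods of the study, CASAVA V1.6 handled the raw reads, FASTQC V0.11.5 their quality and HISAT the alignment to hg19, whereas the submitters' processing notes name Bowtie2, BWA and GRCh38.p13, and which applies was not settled. Of the non-zero counts, 64.7% were not whole (tolerance 0.001). Both were summed per gene, and counts were rounded.

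Genes were tested in R 4.3.3 with edgeR 4.0.16 (quasi-likelihood test, two-sided, TMM; filterByExpr at 10 counts, 15 in total; adjustment by Benjamini and Hochberg over all 7971 genes). The common dispersion was 0.853. DESeq2 1.42.0, limma 3.58.1 on log2(TPM + 1) or log2(TPM + 0.1), and other scalings and filters were alternatives. On counts simulated from its own dispersions, with few genes changed in either direction, the fit called no unchanged gene and missed most changed ones. The simulation lacked the shift in composition between the real groups, so it could not show false calls from that shift. Single values were compared by exact permutation over 70 splits.

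The members, gene lists and tests were chosen with earlier results of these data known. Named were the 7 core genes, the 10 other members with the smallest p among those past the threshold, members above 0 or with over 10% of member counts, and up to 3 genes of each other list. Intervals and floors (3 counts) cover counting error only, since reads carried no molecular identifiers. Recurrent sequence was searched in GENCODE transcripts (GRCh37). In that annotation 24 members overlap another coding or long non-coding gene, 20 of them on the other strand, so their reads may be shared. Strand use in counting was not given in the sources used here. The single values of 1 member and the letters of the recurrent stretches are not reported here.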

Additional observations from a re-analysis of the deposited data

Results flagged for a closer look

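Of 78 groups of 4 libraries examined, 8 held 1 library far from the other 3 on log2(CPM + 1). The nominal rate of 1 in 20 cannot be set against this. The genes share libraries, and in 6 of the 8 cases the other 3 libraries were all at 0. For 2 members the library was CTRL replicate 2: NDUFS1 stood at 7.19 there, against 5.45 to 5.65 in the other CTRL libraries, and NDUFV3 at 8.98, against 4.51 to 5.09. In the other 6 cases only 1 of the 4 shALDH1A1 libraries had any count of the gene. They were NDUFS3 (2.97), NDUFA4L2 (1.44), COQ8A (2.15) and ESRRA (2.15) in replicate 2, COQ9 (2.83) in replicate 3 and FOXRED1 (1.00) in replicate 4.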

How the results depend on the processing

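The count of lower members (25) was 3 on the housekeeping scale, 3 at the study's threshold and 11 to 34 when 1 library was left out, and that of higher members (0) was 4 on the housekeeping scale, 2 with DESeq2 and with each of the 3 limma fits, 1 with median-of-ratios factors, 1 with no filter and 0 to 2 when 1 library was left out. The count of all lower genes (2627) was 4449 with DESeq2, 423 on the housekeeping scale, 4067 with limma at a pseudocount of 0.1, 4274 at a pseudocount of 1, 4192 with median-of-ratios factors, 1556 at a minimum count of 30, 6848 with no filter, 4145 on library totals, 390 at the study's threshold and 2025 to 5996 when 1 library was left out. All higher genes (207) numbered 1326, 3318, 1150, 1287, 1053 (limma with no filter), 903, 1213 (no filter), 59 (library totals), 1 (study's threshold) and 52 to 1715 when 1 library was left out.

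The log2 ratio of the members' median share of counts, shALDH1A1 over CTRL, was 1.90, 0.16 in summed TPM, -1.12 without NDUFA9 and -3.29 without NDUFA9 and NDUFV3, the last chosen after seeing the data. It was 1.20 to 2.44 when 1 library was left out. Same-numbered libraries did not deviate together (correlations -0.35, -0.11, -0.14 and 0.10), so numbers give no pairing. With the replicate block 26 members were lower and 1 higher, with 2508 and 1030 of all genes.

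Among the named genes, fold changes changed sign for NDUFB5 (limma -0.17 at a pseudocount of 1, with and without filter, and -0.17 at 0.1, library totals -0.45), NDUFB6 (DESeq2 -0.26, median-of-ratios -0.26, minimum count of 30 -0.19, no filter -0.091, library totals -0.93), NDUFC2 (DESeq2 -0.24, median-of-ratios -0.23, minimum count of 30 -0.13, no filter -0.0355, library totals -0.95) and, on the housekeeping scale, NDUFS1 (2.42), SDHD (0.83) and TFAM (0.75). Of the members not named by that rule, NDUFA4, NDUFA5, NDUFA11, NDUFA12, NDUFB1, NDUFB3, NDUFB4, NDUFB7 and NDUFS4 also turned above 0 on the housekeeping scale. When 1 library was left out, NDUFB6 ranged between -0.077 (without CTRL replicate 2) and 1.25, and NDUFC2 between -0.22 (without CTRL replicate 2) and 1.49; both were also below 0 without CTRL replicate 4. The causes were not tested. Low counts limit the precision in shALDH1A1 cells, where 29 of 40 members had at most 20 counts in all. Library totals did not follow this, since CTRL replicate 2 had a count for 39 members at a total of 291250 and shALDH1A1 replicate 1 for 15 at 1908799.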
